A study of Arabidopsis thaliana with 27 samples.

Results

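The 9 genes described here make up the core of indole glucosinolate synthesis in Arabidopsis thaliana, 3 MYB regulators and 6 enzymes. They were picked by gene identifier for their place in the pathway, out of 34262 genes in the deposited table. All 9 were tested, along with the rest of the 21180 genes that reached 10 normalized counts in 3 or more libraries. In pathway order the members are the regulators MYB34 (AT5G60890, chr5:24494291-24496371), MYB51 (AT1G18570, chr1:6389399-6391386) and MYB122 (AT1G74080, chr1:27855578-27857598), followed by the enzymes CYP79B2 (AT4G39950, chr4:18525042-18527602), CYP79B3 (AT2G22330, chr2:9488413-9491404), CYP83B1 (AT4G31500, chr4:15273410-15275404), GGP1 (AT4G30530, chr4:14920376-14922519), SUR1 (AT2G20610, chr2:8877887-8880440) and SOT16 (AT1G74100, chr1:27864345-27865694), with coordinates of TAIR10. CYP83B1, SUR1 and SOT16 lie on the minus strand and the other members on the plus strand. No other annotated gene overlaps any of them.

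The study measured root RNA of 10-day-old seedlings grown in liquid MS medium. Both transgenic lines are homozygous, and their labels say that the 35S promoter, which drives strong expression in most tissues, overexpresses the ribosomal protein S30 in them. ICT1-2 carries a transgene built in the laboratory, and ICT1-8098 comes from a collection of lines that each overexpress a full-length cDNA. Col-0 is the wild type. Roots of ICT1-2 (DMSO, 2 libraries here; 200 and 400 µM, 3 each), ICT1-8098 (200 µM and DMSO, 3 each) and Col-0 (DMSO, 200 and 400 µM, 3 each) were compared after 2 h in the solvent DMSO or in indole-3-carbinol (I3C). In a further 3 Col-0 libraries each leaf had been wounded 3 times with tweezers 8 h before the roots were taken. Each treatment used 20 seedlings, and DMSO-treated Col-0 is also the control for the wounded plants, which were not labelled as having received DMSO. A further library labelled ICT1-2 DMSO (replicate 5) has no column among the normalized counts used here and was not analysed. The labels do not tie replicates to separate cultures, and p-values then reflect only the spread among libraries, which may be technical.

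Glucosinolates are sulfur-rich defence compounds of the cabbage order, stored away from the enzyme myrosinase and broken down when tissue is crushed. The indole branch starts from tryptophan, which CYP79B2 and CYP79B3 turn into indole-3-acetaldoxime; CYP83B1 oxidises that oxime, a glutathione conjugate forms, GGP1 trims its glutamyl group, SUR1 cleaves the carbon-sulfur bond, and after a glucosyl transfer SOT16 adds the sulfate. MYB34, MYB51 and MYB122 activate these genes, MYB34 mainly in roots and MYB51 mainly in shoots. I3C is itself a breakdown product of indole glucosinolates, and indole-3-acetaldoxime is also a precursor of the phytoalexin camalexin and of auxin.

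Recovered depth ranged over the 26 libraries from 9503924 to 19433428 reads, with a median of 14169035.5, and libraries of a group correlated at a Spearman coefficient of at least 0.9715. RPS30A, the S30 gene with the largest difference in ICT1-8098, averaged 5743 ± 821 normalized counts in ICT1-8098 DMSO roots and 2659 ± 728 in Col-0 DMSO roots (SD, n = 3 each), a log2 difference of 1.14 (SE 0.21, adjusted p = 0.000649). RPS30A averaged 2429 ± 540.0 (SD, n = 2) in the libraries labelled ICT1-2 DMSO, which differed from Col-0 DMSO by -0.11 (SE 0.24, adjusted p = 0.796). The other S30 genes checked, AT4G29390 and AT5G56670, were not higher than in Col-0 DMSO in either line. By limma they differed by -0.42 (adjusted p = 0.148) and -0.14 (adjusted p = 0.697) in ICT1-8098 DMSO. In ICT1-2 DMSO they differed by -0.30 (adjusted p = 0.319) and -0.078 (adjusted p = 0.833). A higher S30 level was therefore not detected in the libraries labelled ICT1-2. The summed level of 10 photosynthesis genes, markers of green tissue, ranged over 2009 to 2077 in ICT1-2 DMSO, 464 to 568 in ICT1-2 200 µM and 629 to 960.3 in ICT1-2 400 µM libraries. It was 500.2 to 540.4 and 871 to 1010.3 in ICT1-8098 200 µM and DMSO libraries, and in Col-0 it was 1533 to 5452 after wounding, 1483 to 3753 in DMSO, 2011 to 7054 at 200 µM and 2072 to 3162 at 400 µM. None of these 10 genes, and none of 9 root tissue markers, was at 0 in all libraries of a group. Without the stele gene PHO1, the other 8 markers summed to 2439 to 2834 in DMSO, 2401 to 2526 at 200 µM and 2062 to 2126 at 400 µM in ICT1-2 libraries. They summed to 2371 to 2708 at 200 µM, against 2621 to 2717 in DMSO, in ICT1-8098 libraries. In Col-0 libraries they summed to 2921 to 3761 in DMSO, 2204 to 2887 at 200 µM and 2253 to 2433 at 400 µM, and to 2788 to 3030.2 after wounding. These sums at 200 µM overlapped DMSO in ICT1-2 and ICT1-8098 and lay below it in Col-0, as did both groups at 400 µM. Of the 9 root markers, 3 were called lower than in DMSO in ICT1-2 at 200 µM and 2 at 400 µM. In ICT1-8098 1 was called lower, and in Col-0 1 at 200 µM and 3 at 400 µM, with none called higher. PHO1 itself had 904 to 1763 normalized counts in Col-0 200 µM, against 7524 to 12975 in Col-0 DMSO libraries, and was below DMSO in the I3C groups of every line. The part of these marker differences in the results below was not tested.

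Most of the enzymes, and the regulator MYB34, were lower after 2 h of I3C in all 3 lines, though not at every dose. At 200 µM in ICT1-8098 and at both doses in Col-0, MYB34, CYP79B2, CYP79B3, CYP83B1 and SUR1 were called lower than in DMSO, and in ICT1-2 the same 5 genes were called lower at 400 µM. In ICT1-2 at 200 µM SUR1 alone of these 5 was called lower, while MYB51, MYB122, GGP1 and SOT16 were called higher. A call is a limma test with a Benjamini-Hochberg adjusted p below 0.05 over all 21180 tested genes, and log2 differences are of normalized counts plus 1. Overlap between groups describes the ranges of their libraries and is no test. How often groups fail to overlap over all genes was not counted. Since whole roots were measured, fewer cells that express a gene and less of its RNA per cell cannot be told apart.

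In numbers, 4 members were higher and 1 lower in ICT1-2 at 200 µM against DMSO, where 18.6% of all tested genes were called (11.8% higher and 6.76% lower). At 400 µM 1 was higher and 5 were lower in ICT1-2, where 31.4% of all tested genes were called (17.6% higher and 13.7% lower). Between 400 and 200 µM in ICT1-2 none was higher and 5 were lower, where 8.03% of all tested genes were called (5.22% higher and 2.8% lower). Set against these shares, 4 higher members of 9 at 200 µM is above the share of higher genes. Likewise 5 lower members of 9 is above the share of lower genes, and 1 of 9 in either direction is near its share. ICT1-8098 at 200 µM had 1 member higher and 5 lower than in DMSO, where 22.1% of all tested genes were called (14.2% higher and 7.97% lower). Col-0 had 1 higher and 5 lower at 200 µM, where 28.9% of all tested genes were called (15.0% higher and 13.9% lower). The split at 400 µM in Col-0 was the same, where 35.8% of all tested genes were called (18.4% higher and 17.4% lower). The members were picked by pathway, with earlier results of these data known. These counts are therefore set beside the background shares only and are no test. Between 400 and 200 µM in Col-0 no member was called, where 0.123% of all tested genes were called (0.0897% higher and 0.0331% lower), and 2417 genes had an unadjusted p below 0.05.

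Some of these background counts moved by over 1.5 times when a single library was left out. The 3935 genes called in ICT1-2 at 200 µM became 2375 without ICT1-2 DMSO replicate 2 and 2457 without ICT1-2 DMSO replicate 1. The 6644 genes called in ICT1-2 at 400 µM became 4413 without ICT1-2 DMSO replicate 1. The 1700 genes called between the doses in ICT1-2 became 735 without ICT1-2 200 µM replicate 4, 845 without ICT1-2 400 µM replicate 5, 997 without ICT1-2 400 µM replicate 3 and 1051 without ICT1-2 200 µM replicate 2. The 26 genes called between the doses in Col-0 became 7 without Col-0 400 µM replicate 5, 10 without Col-0 200 µM replicate 5, 13 without Col-0 400 µM replicate 4, 164 without Col-0 400 µM replicate 1 and 309 without Col-0 200 µM replicate 1. In ICT1-8098 and in both Col-0 comparisons with DMSO no left-out library moved the count that far.

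The median log2 difference over the 9 members was 0.21 in ICT1-2 at 200 µM, -1.09 in ICT1-2 at 400 µM, -0.94 in ICT1-8098, and -1.004 and -1.35 in Col-0 at 200 and 400 µM. Over all tested genes the medians of these comparisons lay between -0.073 and -0.027. Both Col-0 comparisons share their DMSO libraries, as do both ICT1-2 comparisons. Scaling by total reads instead of size factors moved the all-gene medians to -0.27, -0.51, -0.22, -0.33 and -0.34 in the same order. That scaling also moved the share of higher calls among all calls. The share was 33.8% against 63.6% in ICT1-2 at 200 µM, 20.1% against 56.2% at 400 µM, 25.3% against 65.1% between these doses, 41.0% against 64.0% in ICT1-8098, and 23.4% against 52.0% and 26.9% against 51.5% in Col-0 at 200 and 400 µM. Under that scaling MYB34, CYP79B2, CYP79B3, CYP83B1 and SUR1 were still called lower in ICT1-2 at 400 µM, in ICT1-8098 and in Col-0 at both doses. In ICT1-2 at 200 µM SUR1 was still called lower, and CYP79B2, not called, changed sign to -0.027. MYB34, not called there with size factors, was called lower under that scaling (-1.15, adjusted p = 0.0340).

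**Figure D1:**
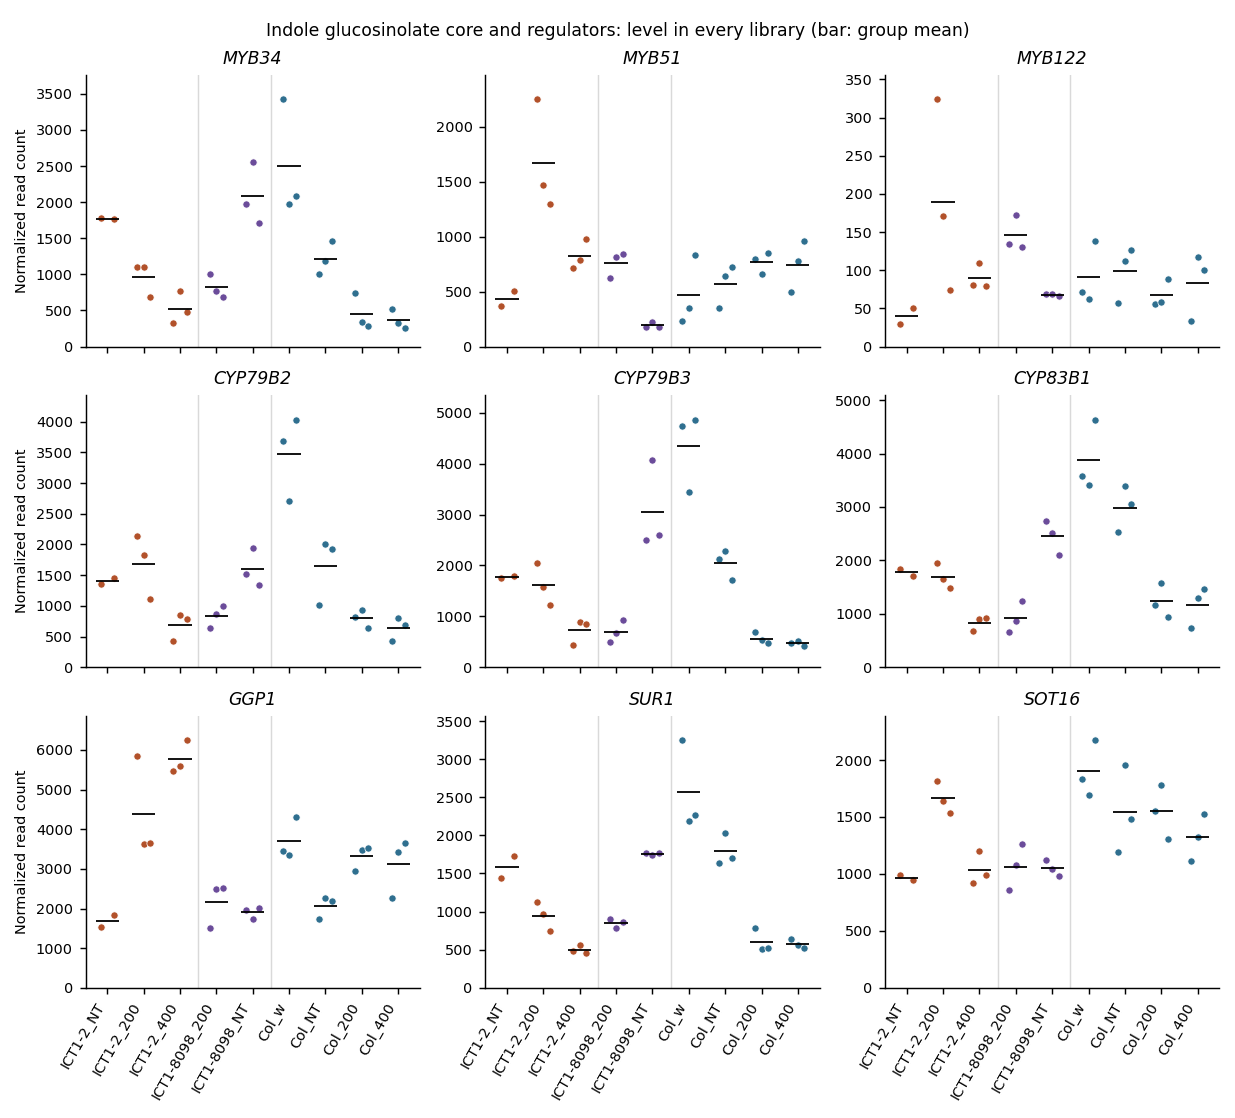
Normalized counts (y axis, linear from 0) of the 9 members in each of the 26 libraries, by group (NT is DMSO, 200 and 400 are µM of I3C, w is wounded); points are libraries and bars the group means. CYP79B3 spans the widest range of group means (9.17-fold) and SOT16 the narrowest (1.96-fold).

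**Figure D2:**
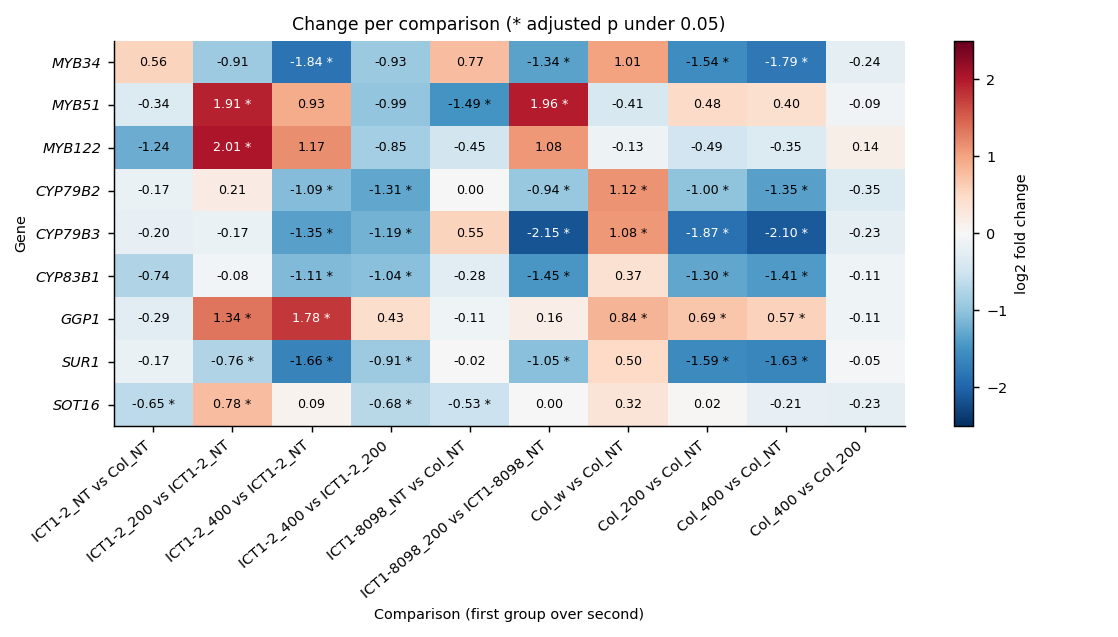
Log2 differences of the 9 members (down the page, in pathway order) in the 10 pairwise comparisons (across, first group over second), with an asterisk where called. In the I3C comparisons MYB34 and the enzymes from CYP79B2 to SUR1 other than GGP1 are mostly negative, while GGP1 reaches 1.78 in ICT1-2 at 400 µM.

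Among the regulators, MYB34 was called lower with I3C in 4 of the 5 comparisons with DMSO. In ICT1-2 it had 1778 and 1765 normalized counts in DMSO, 1102, 1097 and 686 at 200 µM and 329, 771 and 475 at 400 µM. In ICT1-8098 it had 1004, 767 and 694 at 200 µM, against 1972, 2559.8 and 1709 in DMSO. Col-0 roots had 1005, 1179 and 1461 in DMSO, 736, 334 and 283 at 200 µM and 514, 322 and 252 at 400 µM. In all 3 lines every I3C library was below every DMSO library of the same line. The log2 difference was -0.91 (SE 0.37, adjusted p = 0.0917) in ICT1-2 at 200 µM, which was not called, and -1.84 (SE 0.37, adjusted p = 0.000489) at 400 µM. It was -1.34 (SE 0.33, adjusted p = 0.00412) in ICT1-8098, and -1.54 (SE 0.33, adjusted p = 0.000926) and -1.79 (SE 0.33, adjusted p = 0.000161) in Col-0 at 200 and 400 µM. The difference in ICT1-2 at 200 µM was called with total-read scaling (-1.15, adjusted p = 0.0340). It was also called in a fit of the compared groups alone (adjusted p = 0.0472). The groups spanned 6.88-fold from wounded Col-0, the highest mean, to Col-0 400 µM, the lowest. Of neighbouring groups in that order, ICT1-2 DMSO and Col-0 DMSO did not overlap, and all others did.

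MYB51 was called higher at 200 µM I3C in both transgenic lines. ICT1-2 had 365 and 505 normalized counts in DMSO, 2249, 1466 and 1295 at 200 µM and 715, 785 and 978 at 400 µM. ICT1-8098 had 621, 811 and 845 at 200 µM, against 182, 222 and 179 in DMSO. In Col-0 it had 349, 639.9 and 723 in DMSO, 794, 657 and 848 at 200 µM and 494, 775 and 959.5 at 400 µM. Neither I3C group of ICT1-2 overlapped its DMSO group, and the same held in ICT1-8098, whereas the I3C and DMSO groups of Col-0 did overlap. The log2 difference was 1.91 (SE 0.37, adjusted p = 0.000614) in ICT1-2 at 200 µM and 1.96 (SE 0.34, adjusted p = 9.99e-05) in ICT1-8098. It was 0.93 (SE 0.37, adjusted p = 0.0630) in ICT1-2 at 400 µM, and 0.48 (adjusted p = 0.304) and 0.40 (adjusted p = 0.384) in Col-0 at 200 and 400 µM, none of them called. ICT1-8098 DMSO roots had the lowest mean and ICT1-2 200 µM roots the highest, 8.61-fold apart, and each of these groups was clear of its neighbour in the order.

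MYB122, the least abundant member, was called higher in ICT1-2 at 200 µM alone. ICT1-2 had 30 and 50.5 normalized counts in DMSO, 324, 171 and 74.5 at 200 µM and 80.4, 109.9 and 79.4 at 400 µM. ICT1-8098 had 135, 173 and 131 at 200 µM, against 69.1, 68.8 and 66.7 in DMSO. Col-0 had 57.7, 112 and 126 in DMSO, 56.2, 59.1 and 88.2 at 200 µM and 33.4, 117 and 100.4 at 400 µM. Both I3C groups of ICT1-2 and the I3C group of ICT1-8098 lay above their DMSO groups, while in Col-0 the groups overlapped. MYB122 differed on the log2 scale by 2.01 (SE 0.51, adjusted p = 0.00631) in ICT1-2 at 200 µM, 1.17 (adjusted p = 0.0851) at 400 µM and 1.08 (adjusted p = 0.1004) in ICT1-8098. In Col-0 it was -0.49 (adjusted p = 0.459) at 200 µM and -0.35 (adjusted p = 0.588) at 400 µM. The 1 call was lost without ICT1-2 DMSO replicate 1 (adjusted p = 0.108) and in a fit of the compared groups alone (adjusted p = 0.0894). The ICT1-2 DMSO group has 2 libraries here.

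Within a library the scale cancels, and the ratio of MYB51 to MYB34 normalized counts stood apart between I3C and DMSO roots. It was 0.205 to 0.286 in ICT1-2 DMSO, 1.34 to 2.04 at 200 µM and 1.02 to 2.17 at 400 µM. It was 0.619 to 1.22 in ICT1-8098 at 200 µM, against 0.0867 to 0.104 in DMSO. In Col-0 it was 0.347 to 0.543 in DMSO, 1.08 to 3.00 at 200 µM and 0.961 to 3.80 at 400 µM. Every I3C library of a line therefore had a higher ratio than every DMSO library of that line. The ratio combines genes whose differences are given above and is no separate test.

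The oxime-forming step is shared by CYP79B2 and CYP79B3, paralogous cytochromes P450 on chromosomes 4 and 2. Their upstream windows are shown because, of all 36 pairs of members, this pair shares the longest identical run. Both genes were called lower in most I3C comparisons with DMSO, as were MYB34, CYP83B1 and SUR1, which played no part in the choice. The run lies within a longer stretch that is nearly the same in both windows. Whether this stretch bears on expression was not tested. The 300 bases before each annotated start are given 5′ to 3′ on the coding strand, from the RefSeq genome of assembly TAIR10.1, chr4:18524742-18525041 and chr2:9488113-9488412, both on the plus strand. Capitals mark the 39 bases that are the same in an aligned stretch of 40, and the lower-case base inside it is the one that differs.
CYP79B2: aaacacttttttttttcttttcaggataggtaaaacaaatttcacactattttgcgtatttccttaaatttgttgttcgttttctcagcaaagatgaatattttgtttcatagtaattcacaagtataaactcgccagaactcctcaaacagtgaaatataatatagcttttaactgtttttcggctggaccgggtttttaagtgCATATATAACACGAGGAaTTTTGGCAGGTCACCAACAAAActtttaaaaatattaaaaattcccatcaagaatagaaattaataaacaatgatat
CYP79B3: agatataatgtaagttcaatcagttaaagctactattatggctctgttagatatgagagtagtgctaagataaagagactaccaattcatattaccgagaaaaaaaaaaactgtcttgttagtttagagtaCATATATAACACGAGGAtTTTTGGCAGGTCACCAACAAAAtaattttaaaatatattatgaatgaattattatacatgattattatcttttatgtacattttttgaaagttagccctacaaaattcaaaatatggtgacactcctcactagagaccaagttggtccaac
The stretch lies 95 to 56 bases before the start of CYP79B2 and 169 to 130 bases before that of CYP79B3. Its longest identical run, ttttggcaggtcaccaacaaaa, has 22 bases and occurs in 2 of 27443 upstream windows of this length, these same windows. For the other 35 pairs of members the longest identical run had 7 to 14 bases, with a median of 9.

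Motifs of 4 kinds were searched on both strands of the 9 windows, and a match is a description of letters only. The G-box CACGTG was in 1 of 9 members (SUR1) and 7.09% of all windows. The AC element ACCTACC, its variant ACCAACC or the further variant ACCTAAC was in 2 of 9 (SUR1 and SOT16) and 7.16% of all windows. W-box cores TTGACC and TTGACT were in 2 of 9 (GGP1 and SUR1) and 32.3% of windows, and the heat shock element GAANNTTC in none of 9 and 11.5%. None of these motifs overlaps the stretch that CYP79B2 and CYP79B3 share.

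CYP79B2 fell with I3C in 4 of 5 comparisons with DMSO, and 3 of these 4 calls were lost when a single library was left out. ICT1-2 had 1362 and 1446 normalized counts in DMSO, 2132, 1822 and 1108 at 200 µM and 422, 859 and 783 at 400 µM. ICT1-8098 had 647, 867 and 998 at 200 µM, against 1523, 1942 and 1332 in DMSO. Col-0 had 1021, 2013 and 1921 in DMSO, 819.5, 938 and 636 at 200 µM and 432, 804 and 683 at 400 µM. The I3C groups of ICT1-8098 and Col-0 and the 400 µM group of ICT1-2 were below their DMSO groups without overlap, and the 200 µM group of ICT1-2 overlapped its DMSO group. CYP79B2 differed by 0.21 (SE 0.33, adjusted p = 0.718) in ICT1-2 at 200 µM and -1.09 (SE 0.33, adjusted p = 0.0146) at 400 µM. It was -0.94 (SE 0.30, adjusted p = 0.0243) in ICT1-8098, and -1.004 (SE 0.30, adjusted p = 0.0127) and -1.35 (SE 0.30, adjusted p = 0.000969) in Col-0 at 200 and 400 µM. Leaving out 1 library ended the ICT1-2 call at 400 µM when any 1 of ICT1-2 400 µM replicate 3, ICT1-2 DMSO replicate 1 and ICT1-2 DMSO replicate 2 was left out (adjusted p = 0.0922, 0.0653 and 0.0883, in that order). The ICT1-8098 call ended when any 1 of ICT1-8098 200 µM replicate 2, ICT1-8098 200 µM replicate 3, ICT1-8098 DMSO replicate 1 and ICT1-8098 DMSO replicate 4 was left out (adjusted p = 0.108, 0.0530, 0.0545 and 0.117, in that order). In Col-0 the call at 200 µM ended when any 1 of Col-0 200 µM replicate 5, Col-0 DMSO replicate 4 and Col-0 DMSO replicate 5 was left out (adjusted p = 0.0651, 0.0731 and 0.0635, in that order), while that at 400 µM held without each library. A fit of the compared groups alone also ended the calls in ICT1-2 at 400 µM (adjusted p = 0.0529) and in Col-0 at 200 µM (adjusted p = 0.0612).

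CYP79B3 showed the widest range of the members. In ICT1-2 roots it had 1744 and 1788 normalized counts in DMSO, 2042, 1571 and 1216 at 200 µM and 441, 883 and 845 at 400 µM. In ICT1-8098 roots it had 493, 663 and 924 at 200 µM, against 2500.3, 4074 and 2605 in DMSO. Col-0 roots had 2136, 2291 and 1709 in DMSO, 689.8, 533 and 468 at 200 µM and 477, 519.7 and 426 at 400 µM. ICT1-2 at 200 µM overlapped its DMSO group, and the other 4 I3C groups lay wholly below theirs. The log2 difference was -0.17 (SE 0.29, adjusted p = 0.748) in ICT1-2 at 200 µM and -1.35 (SE 0.29, adjusted p = 0.000847) at 400 µM. ICT1-8098 differed by -2.15 (SE 0.26, adjusted p = 7.86e-07), and Col-0 by -1.87 (SE 0.26, adjusted p = 4.78e-06) at 200 µM and -2.10 (SE 0.26, adjusted p = 7.06e-07) at 400 µM. These calls held without each library. Ordered by mean, wounded Col-0 was highest and Col-0 400 µM lowest, 9.17-fold apart, and neighbours overlapped except between ICT1-8098 DMSO and Col-0 DMSO and between ICT1-2 200 µM and ICT1-2 400 µM.

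The ratio of CYP79B2 to CYP79B3 normalized counts within a library also stood apart with I3C, except in Col-0 at 400 µM. It was 0.781 to 0.809 in ICT1-2 DMSO, 0.912 to 1.16 at 200 µM and 0.927 to 0.972 at 400 µM. It was 1.08 to 1.31 in ICT1-8098 at 200 µM, against 0.477 to 0.609 in DMSO. In Col-0 it was 0.478 to 1.12 in DMSO, 1.19 to 1.76 at 200 µM and 0.906 to 1.60 at 400 µM. I3C libraries were above DMSO libraries without overlap in ICT1-2, in ICT1-8098 and in Col-0 at 200 µM, and overlapped them in Col-0 at 400 µM. This ratio too combines genes whose differences are given above and is no separate test.

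CYP83B1, which commits the oxime to glucosinolates, followed the same direction. ICT1-2 roots had 1844 and 1704 normalized counts in DMSO, 1949, 1646 and 1485 at 200 µM and 674, 897 and 912 at 400 µM. ICT1-8098 roots had 667, 857 and 1230.3 at 200 µM, against 2744, 2511 and 2100.5 in DMSO. Col-0 roots had 2524, 3384 and 3056 in DMSO, 1169, 1584 and 946 at 200 µM and 739.6, 1289 and 1457 at 400 µM. Except in ICT1-2 at 200 µM, which overlapped DMSO, every I3C library was below the DMSO libraries of its line. CYP83B1 differed from DMSO by -0.075 (SE 0.26, adjusted p = 0.884) in ICT1-2 at 200 µM and -1.11 (SE 0.26, adjusted p = 0.00221) at 400 µM. It was -1.45 (SE 0.23, adjusted p = 4.66e-05) in ICT1-8098 and -1.30 (SE 0.23, adjusted p = 0.000149) and -1.41 (SE 0.23, adjusted p = 4.57e-05) in Col-0 at 200 and 400 µM. Each called difference held without each library and under each other setting tried.

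GGP1 was called higher with I3C in ICT1-2 and in Col-0 at both doses. ICT1-2 had 1538 and 1837 normalized counts in DMSO, 5849, 3634 and 3654 at 200 µM and 5463, 5595 and 6237 at 400 µM. ICT1-8098 had 1509, 2488 and 2523 at 200 µM, against 1952, 1735 and 2012 in DMSO. Col-0 had 1742, 2270.5 and 2183 in DMSO, 2957, 3470.1 and 3521 at 200 µM and 2268, 3436 and 3653 at 400 µM. Both I3C groups of ICT1-2 and the 200 µM group of Col-0 lay above their DMSO groups, and the groups overlapped in ICT1-8098 and in Col-0 at 400 µM. The log2 difference was 1.34 (SE 0.23, adjusted p = 0.000123) in ICT1-2 at 200 µM and 1.78 (SE 0.23, adjusted p = 1.72e-06) at 400 µM, calls that held without each library. In ICT1-8098 it was 0.16 (SE 0.20, adjusted p = 0.665). In Col-0 it was 0.69 (SE 0.20, adjusted p = 0.0124) at 200 µM and 0.57 (SE 0.20, adjusted p = 0.0305) at 400 µM. The Col-0 call at 200 µM ended without Col-0 DMSO replicate 3 (adjusted p = 0.0682) and with total-read scaling (0.37, adjusted p = 0.102). At 400 µM it ended when any 1 of Col-0 400 µM replicate 4, Col-0 400 µM replicate 5 and Col-0 DMSO replicate 3 was left out (adjusted p = 0.113, 0.149 and 0.128, in that order), with total-read scaling (0.29, adjusted p = 0.197) and in a fit of the compared groups alone (adjusted p = 0.0884).

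SUR1, the C-S lyase of the pathway, was the member called lower in all 5 comparisons with DMSO. ICT1-2 had 1445 and 1724 normalized counts in DMSO, 1128, 963 and 750.3 at 200 µM and 489.6, 561 and 451 at 400 µM. ICT1-8098 had 897, 788 and 861 at 200 µM, against 1769.9, 1745 and 1764 in DMSO. Col-0 had 1635, 2031 and 1703 in DMSO, 779.5, 508 and 523 at 200 µM and 641, 564 and 521 at 400 µM. No I3C group overlapped the DMSO group of its line. On the log2 scale SUR1 differed by -0.76 (SE 0.19, adjusted p = 0.00597) in ICT1-2 at 200 µM and -1.66 (SE 0.19, adjusted p = 3.24e-07) at 400 µM. It was -1.05 (SE 0.17, adjusted p = 4.65e-05) in ICT1-8098, and -1.59 (SE 0.17, adjusted p = 1.15e-07) and -1.63 (SE 0.17, adjusted p = 5.87e-08) in Col-0 at 200 and 400 µM. The call in ICT1-2 at 200 µM ended without ICT1-2 DMSO replicate 2 (adjusted p = 0.105), and the others held without each library. From the highest mean, wounded Col-0, to the lowest, ICT1-2 400 µM, SUR1 spanned 5.13-fold, and neighbours in the order did not overlap between wounded Col-0 and Col-0 DMSO, between ICT1-8098 DMSO and ICT1-2 DMSO, between ICT1-2 DMSO and ICT1-2 200 µM and between ICT1-8098 200 µM and Col-0 200 µM.

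SOT16, the sulfotransferase of the last core step, varied least, with 1.96-fold between its highest and lowest group means, and neighbouring groups in its order overlapped throughout. ICT1-2 had 988 and 949 normalized counts in DMSO, 1820.0, 1636 and 1534 at 200 µM and 923, 1199 and 993 at 400 µM. ICT1-8098 had 856, 1075 and 1259.8 at 200 µM, against 1121, 1040.4 and 984 in DMSO. Col-0 had 1196, 1956 and 1486 in DMSO, 1554, 1781 and 1309.9 at 200 µM and 1116, 1328 and 1527 at 400 µM. The 200 µM group of ICT1-2 was above its DMSO group, and the other I3C groups overlapped DMSO. The log2 difference was 0.78 (SE 0.19, adjusted p = 0.00454) in ICT1-2 at 200 µM, a call that ended without ICT1-2 DMSO replicate 2 (adjusted p = 0.0510). At 400 µM in ICT1-2 it was 0.092 (adjusted p = 0.748), in ICT1-8098 0.0046 (adjusted p = 0.993), and in Col-0 0.020 (adjusted p = 0.947) at 200 µM and -0.21 (adjusted p = 0.365) at 400 µM. With total-read scaling SOT16 was called lower in Col-0 at 400 µM (-0.49, adjusted p = 0.00911).

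Members of the pathway stood in different proportions with and without I3C. The ratio of GGP1 to SUR1 within a library was 1.06 to 1.07 in ICT1-2 DMSO, 3.77 to 5.18 at 200 µM and 9.98 to 13.8 at 400 µM. It was 1.68 to 3.16 in ICT1-8098 at 200 µM, against 0.995 to 1.14 in DMSO. In Col-0 it was 1.06 to 1.28 in DMSO, 3.79 to 6.84 at 200 µM and 3.54 to 7.02 at 400 µM. Every I3C library was above every DMSO library of its line. The ratio of SOT16 to CYP83B1 was 0.536 to 0.557 in ICT1-2 DMSO, 0.934 to 1.03 at 200 µM and 1.09 to 1.37 at 400 µM. It was 1.02 to 1.28 in ICT1-8098 at 200 µM, against 0.408 to 0.469 in DMSO, and 0.474 to 0.578 in Col-0 DMSO, 1.12 to 1.38 at 200 µM and 1.03 to 1.51 at 400 µM. It too was above the DMSO libraries in every I3C library of a line. Both ratios combine genes whose differences are given above and are no separate tests.

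**Figure D3:**
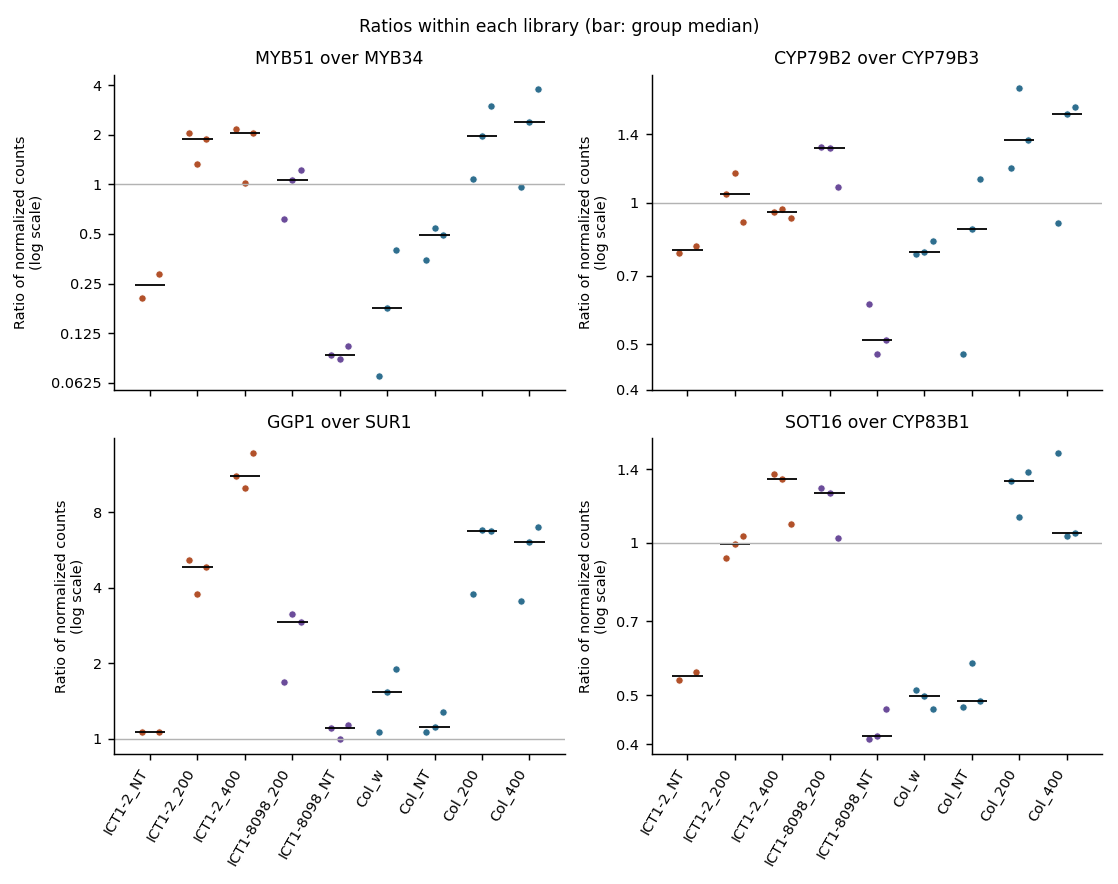
Within-library ratios of normalized counts (y axis, log scale) for 4 pairs of members, by group; points are libraries and bars the group medians. The GGP1 to SUR1 ratio is 9.98 to 13.8 in ICT1-2 at 400 µM and 1.06 to 1.07 in ICT1-2 DMSO.

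Per kilobase of annotated exon, which allows levels to be compared between genes, GGP1 and CYP83B1 were the most abundant members in Col-0 DMSO roots, with 1699.8 and 1573 normalized counts per kilobase. SOT16 had 1145, SUR1 955, CYP79B3 913 and CYP79B2 773. The regulators had 684 (MYB34), 319.6 (MYB51) and 63.2 (MYB122). MYB34 was thus the most abundant of the 3 regulators in these control roots, and MYB122 the least abundant of all members.

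In ICT1-2 5 members were lower at 400 than at 200 µM, and in Col-0 none was called between the doses. Between 400 and 200 µM in ICT1-2, CYP79B2 differed by -1.31 (SE 0.30, adjusted p = 0.00791), CYP79B3 by -1.19 (SE 0.26, adjusted p = 0.00551) and CYP83B1 by -1.04 (SE 0.23, adjusted p = 0.00752). SUR1 differed by -0.91 (SE 0.17, adjusted p = 0.00187) and SOT16 by -0.68 (SE 0.17, adjusted p = 0.0136). Each of the 5 was called. MYB34 and MYB51 differed by -0.93 (adjusted p = 0.0884) and -0.99 (adjusted p = 0.0724), which were not called. In Col-0 the same dose step gave differences from -0.35 for CYP79B2 to 0.14 for MYB122, and the 95% intervals were -0.96 to 0.27 for CYP79B2, -0.77 to 0.30 for CYP79B3, -0.60 to 0.37 for CYP83B1 and -0.40 to 0.31 for SUR1. Whether the dose steps of ICT1-2 and Col-0 differ was not tested. The CYP79B2 call ended when either ICT1-2 200 µM replicate 2 or ICT1-2 400 µM replicate 3 was left out (adjusted p = 0.0511 and 0.0655, in that order). The SOT16 call ended when any 1 of ICT1-2 200 µM replicate 2, ICT1-2 400 µM replicate 3 and ICT1-2 400 µM replicate 5 was left out (adjusted p = 0.0645, 0.0716 and 0.0566, in that order). A fit of the compared groups alone ended the CYP79B2 call (adjusted p = 0.0654) and the CYP79B3 call (adjusted p = 0.0652). Member counts fell to 3 of 9 without ICT1-2 200 µM replicate 2 or without ICT1-2 400 µM replicate 3.

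After leaf wounding, CYP79B2, CYP79B3 and GGP1 were higher in Col-0 roots than in DMSO. Wounded roots were taken after 8 h and DMSO roots after 2 h, and the wounded plants were not labelled as having received DMSO. Wounding, solvent and time therefore cannot be told apart in this comparison. Of the 9 members, 3 were called higher and none lower in wounded Col-0 against Col-0 DMSO, where 2.47% of all tested genes were called (1.8% higher and 0.67% lower). The median log2 difference was 0.50 over the members and -0.0078 over all genes. CYP79B2 had 3688, 2707 and 4030.5 normalized counts in wounded roots, against 1021, 2013 and 1921 in DMSO roots, a difference of 1.12 (SE 0.30, adjusted p = 0.0443). CYP79B3 had 4739.9, 3441 and 4862, against 2136, 2291 and 1709, a difference of 1.08 (SE 0.26, adjusted p = 0.0197). GGP1 had 3458, 3353 and 4298, against 1742, 2270.5 and 2183, a difference of 0.84 (SE 0.20, adjusted p = 0.0223). These 3 genes did not overlap between the groups. The 524 genes called in wounded Col-0 became 314 without Col-0 DMSO replicate 4 and 348 without wounded Col-0 replicate 2.

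The remaining members were not called after wounding. MYB34 had 3425, 1981 and 2083 normalized counts in wounded roots, against 1005, 1179 and 1461 in DMSO roots, 1.01 (SE 0.33, adjusted p = 0.135), with no overlap. CYP83B1, with a difference of 0.37 (adjusted p = 0.684), and SUR1, with 0.50 (adjusted p = 0.155), also lay above without overlap. SOT16 at 0.32 (adjusted p = 0.536), MYB51 at -0.41 (adjusted p = 0.829) and MYB122 at -0.13 (adjusted p = 0.991) overlapped. The CYP79B2 call ended when any 1 of Col-0 DMSO replicate 3, Col-0 DMSO replicate 4, Col-0 DMSO replicate 5, wounded Col-0 replicate 1 and wounded Col-0 replicate 4 was left out (adjusted p = 0.237, 0.0506, 0.0504, 0.122 and 0.186, in that order). That of CYP79B3 ended when any 1 of Col-0 DMSO replicate 5, wounded Col-0 replicate 1 and wounded Col-0 replicate 4 was left out (adjusted p = 0.102, 0.0728 and 0.101, in that order), and that of GGP1 when either Col-0 DMSO replicate 3 or wounded Col-0 replicate 4 was left out (adjusted p = 0.103 and 0.132, in that order). No member was called without wounded Col-0 replicate 4, and 1 without Col-0 DMSO replicate 3, without Col-0 DMSO replicate 5 or without wounded Col-0 replicate 1. Fits of the compared groups alone ended the calls of CYP79B2 (adjusted p = 0.190) and GGP1 (adjusted p = 0.0649), and without the low-count filter that of CYP79B2 ended (adjusted p = 0.0627). Wounded roots were taken after 8 h and I3C roots after 2 h, so the treatments are given side by side and were not compared with each other.

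Without I3C the members called between the transgenic lines and Col-0 were SOT16 in both lines and MYB51 in ICT1-8098. In libraries labelled ICT1-2 DMSO against Col-0 DMSO none of the 9 was called higher and 1 lower, where 18.2% of all tested genes were called (9.5% higher and 8.66% lower). In ICT1-8098 DMSO none was higher and 2 were lower, where 12.2% of all tested genes were called (6.01% higher and 6.17% lower). The 1 lower of 9 in ICT1-2 is near the share of lower genes. The 2 lower of 9 in ICT1-8098 is above that share, and neither reading is a test. MYB51 had 182, 222 and 179 normalized counts in ICT1-8098 DMSO, against 349, 639.9 and 723 in Col-0 DMSO, a difference of -1.49 (SE 0.34, adjusted p = 0.00369) that held without each library. SOT16 had 988 and 949 in ICT1-2 and 1121, 1040.4 and 984 in ICT1-8098, against 1196, 1956 and 1486 in Col-0. It differed by -0.65 (SE 0.19, adjusted p = 0.0190) in ICT1-2 and by -0.53 (SE 0.17, adjusted p = 0.0397) in ICT1-8098. Both lines share the Col-0 DMSO libraries in these comparisons. With total-read scaling the share of higher calls among all calls between ICT1-2 DMSO and Col-0 DMSO was 64.2%, against 52.3% with size factors. The 3846 genes called between ICT1-2 DMSO and Col-0 DMSO became 1973 without ICT1-2 DMSO replicate 2, 2308 without ICT1-2 DMSO replicate 1 and 2492 without Col-0 DMSO replicate 4. The 2579 genes called between ICT1-8098 DMSO and Col-0 DMSO became 1702 without Col-0 DMSO replicate 4.

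The ICT1-2 call of SOT16 ended when any 1 of Col-0 DMSO replicate 4, ICT1-2 DMSO replicate 1 and ICT1-2 DMSO replicate 2 was left out (adjusted p = 0.121, 0.0804 and 0.124, in that order) and in a fit of the compared groups alone (adjusted p = 0.0748). The ICT1-8098 call ended when any 1 of Col-0 DMSO replicate 4, Col-0 DMSO replicate 5, ICT1-8098 DMSO replicate 1, ICT1-8098 DMSO replicate 4 and ICT1-8098 DMSO replicate 5 was left out (adjusted p = 0.283, 0.0878, 0.0618, 0.102 and 0.133, in that order). It also ended with TMM scaling (adjusted p = 0.0519), without the low-count filter (adjusted p = 0.0504) and in a fit of the compared groups alone (adjusted p = 0.0713). CYP83B1 was lower in ICT1-2 DMSO without overlap, -0.74 (SE 0.26, adjusted p = 0.0512), and was not called. MYB34 was higher than in Col-0 without overlap in both lines, by 0.56 (adjusted p = 0.319) in ICT1-2 and 0.77 (adjusted p = 0.145) in ICT1-8098, and was not called. Of the 10 photosynthesis markers 6 were called lower in ICT1-8098 DMSO than in Col-0 DMSO and none in ICT1-2 DMSO. MYB51 is known mainly from shoots, and the part of that marker difference in its value was not tested.

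Whether a line responded to I3C differently from Col-0 was tested as the difference of log2 responses. In the libraries labelled ICT1-2, all 9 members had a less negative or more positive response at 200 µM than in Col-0, with a median of 1.22 over the members and 0.015 over all genes. The 9 values come from the same libraries, so their shared direction is no separate test. Only 1 of 9 was called, CYP79B3 with 1.70 (SE 0.38, adjusted p = 0.0387), where 0.68% of all tested genes were called (0.335% higher and 0.345% lower). The others ran from 0.63 (adjusted p = 0.662) for MYB34 to 2.50 (adjusted p = 0.0931) for MYB122, with 1.22 (adjusted p = 0.114) for CYP83B1 and 0.83 (adjusted p = 0.140) for SUR1. At 400 µM 1 of 9 was called, GGP1 with 1.20 (SE 0.30, adjusted p = 0.0380), where 2.22% of all tested genes were called (1.35% higher and 0.873% lower), and the median over the members was 0.30, against 0.013 over all genes. In ICT1-8098 at 200 µM no member was called by limma, where 0.264% of all tested genes were called (0.146% higher and 0.118% lower); the members ran from -0.53 for GGP1 to 1.57 for MYB122, and 2015 genes had an unadjusted p below 0.05. With total-read scaling the share of positive calls among all calls was 35.1%, against 60.7% with size factors for the ICT1-2 difference at 400 µM. It was 71.2%, against 55.4% with size factors for the ICT1-8098 difference.

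The counts over all genes in these tests also moved when single libraries were left out. The 144 genes called in the ICT1-2 test at 200 µM became 232 without Col-0 DMSO replicate 3 and 393 without Col-0 200 µM replicate 1, and between 29 (without ICT1-2 DMSO replicate 2) and 77 without any 1 of the other libraries except Col-0 200 µM replicate 5 and ICT1-2 200 µM replicate 5. The 471 genes called in the ICT1-2 test at 400 µM became 143 without ICT1-2 DMSO replicate 1, 230 without ICT1-2 400 µM replicate 5, 248 without ICT1-2 DMSO replicate 2, 270 without Col-0 DMSO replicate 4 and 708 without Col-0 400 µM replicate 1. The 56 genes called in the ICT1-8098 test became 95 without Col-0 DMSO replicate 3 and 369 without Col-0 200 µM replicate 1, and between 29 (without Col-0 DMSO replicate 4) and 35 without any 1 of the other libraries except Col-0 200 µM replicate 5, ICT1-8098 200 µM replicate 2 and ICT1-8098 200 µM replicate 4.

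The CYP79B3 and GGP1 calls were lost when single libraries were left out. The CYP79B3 difference ended without any 1 of its 11 libraries except Col-0 200 µM replicate 1 and ICT1-2 200 µM replicate 5 (adjusted p between 0.0513 and 0.172). It also ended in a fit of the compared groups alone (adjusted p = 0.0543) and with voom on recovered reads (adjusted p = 0.0651). The GGP1 difference at 400 µM ended without any 1 of its 11 libraries except Col-0 400 µM replicate 4, Col-0 400 µM replicate 5 and Col-0 DMSO replicate 3 (adjusted p between 0.0558 and 0.197). It also ended without the low-count filter (adjusted p = 0.0506) and with voom (adjusted p = 0.0504). In ICT1-2, 7 of the 10 photosynthesis markers were called lower at 200 µM than in DMSO and 5 at 400 µM, while in Col-0 none was called lower at either dose; the part of this difference in the values above was not tested.

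**Figure D4:**
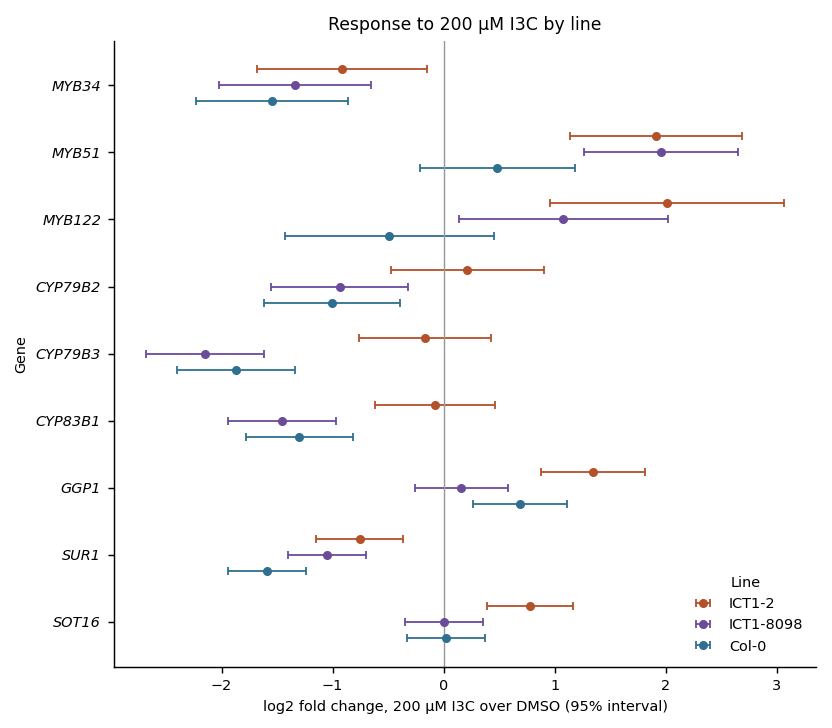
Log2 difference from DMSO (x axis) of each member at 200 µM I3C in ICT1-2, ICT1-8098 and Col-0, with 95% intervals. CYP79B3 lies at -0.17 in ICT1-2, -2.15 in ICT1-8098 and -1.87 in Col-0.

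Genes next to the core in the pathway were counted by list in the 5 comparisons of I3C with DMSO, and the shares and medians of all genes are those given above. The 10 tryptophan synthesis genes, which supply the precursor and were all tested, had 5 called higher and 0 lower in ICT1-2 at 200 µM, 2 called higher and 0 lower in ICT1-2 at 400 µM, 1 called higher and 0 lower in ICT1-8098, 0 called higher and 0 lower in Col-0 at 200 µM and 0 called higher and 2 lower in Col-0 at 400 µM. Their median log2 differences were 0.62, 0.19, 0.26, -0.036 and -0.065 in this order. TSB1, a subunit of tryptophan synthase, had 7460.0 ± 358 normalized counts in ICT1-2 at 400 µM and 2289 ± 77.0 in DMSO (SD, n = 3 and 2), a difference of 1.70 (SE 0.25, adjusted p = 1.14e-05). Its near-identical copy TSB2 makes both counts uncertain.

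The other core steps and the sulfate donor, 9 genes that were all tested, had 1 called higher and 3 lower in ICT1-2 at 200 µM, 1 called higher and 6 lower in ICT1-2 at 400 µM, 0 called higher and 7 lower in ICT1-8098, 0 called higher and 6 lower in Col-0 at 200 µM and 0 called higher and 8 lower in Col-0 at 400 µM. Their medians were -0.19, -1.33, -1.18, -1.31 and -1.53. These include the sulfotransferase SOT18, known mainly for aliphatic glucosinolates, with 179.8 ± 80.2 normalized counts in Col-0 at 200 µM and 1491 ± 295 in DMSO (SD, n = 3 each), a log2 difference of -3.11 (SE 0.24, adjusted p = 5.80e-10). After wounding 5 of these 9 were called higher. Among them was APK1, which makes the sulfate donor, with 2574 ± 276 in wounded and 1507 ± 149 in DMSO Col-0 roots (SD, n = 3 each), 0.77 (SE 0.16, adjusted p = 0.00619).

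Indole ring modification had 8 of 9 genes tested, with 6 called higher and 1 lower in ICT1-2 at 200 µM, 6 called higher and 2 lower in ICT1-2 at 400 µM, 1 called higher and 1 lower in ICT1-8098, 4 called higher and 1 lower in Col-0 at 200 µM and 3 called higher and 1 lower in Col-0 at 400 µM. The medians were 1.48, 2.35, 0.41, 1.01 and 0.97. CYP81F2, which hydroxylates the indole ring, had 2643 ± 1695 normalized counts in ICT1-2 at 200 µM and 368 ± 3.26 in DMSO (SD, n = 3 and 2), 2.64 (SE 0.55, adjusted p = 0.00117). Counts of the tandem methyltransferase genes IGMT1 to IGMT4 are uncertain, since reads can be split between copies.

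Of 10 genes for other uses of indole-3-acetaldoxime 9 were tested, with 5 called higher and 0 lower in ICT1-2 at 200 µM, 4 called higher and 0 lower in ICT1-2 at 400 µM, 5 called higher and 0 lower in ICT1-8098, 4 called higher and 0 lower in Col-0 at 200 µM and 4 called higher and 1 lower in Col-0 at 400 µM. The medians were 3.32, 1.75, 1.25, 1.39 and 0.96. PAD3, which makes camalexin, averaged 1745 ± 289 normalized counts in ICT1-2 at 400 µM and 192 ± 29.2 in DMSO (SD, n = 3 and 2), 3.17 (SE 0.53, adjusted p = 6.50e-05). In ICT1-8098 PAD3 averaged 1756 ± 1050.0 at 200 µM and 269 ± 13.6 in DMSO (SD, n = 3 each), 2.47 (SE 0.48, adjusted p = 0.000370).

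Partner regulators had 7 of 9 genes tested, with 4 called higher and 1 lower in ICT1-2 at 200 µM, 4 called higher and 1 lower in ICT1-2 at 400 µM, 3 called higher and 1 lower in ICT1-8098, 3 called higher and 1 lower in Col-0 at 200 µM and 3 called higher and 2 lower in Col-0 at 400 µM. The medians were 0.43, 0.69, 0.58, 0.0082 and 0.45. SDI2, a relative of the glucosinolate repressor SDI1, averaged 1479 ± 130.3 normalized counts in ICT1-2 at 400 µM and 189 ± 29.4 in DMSO (SD, n = 3 and 2), 2.97 (SE 0.21, adjusted p = 9.88e-11). All 3 glucosinolate transporters were tested, with 1 called higher and 1 lower in ICT1-2 at 200 µM, 0 called higher and 1 lower in ICT1-2 at 400 µM, 0 called higher and 1 lower in ICT1-8098, 0 called higher and 1 lower in Col-0 at 200 µM and 0 called higher and 2 lower in Col-0 at 400 µM. Their medians were 0.38, 0.041, -0.58, -0.45 and -0.79. GTR2, a glucosinolate importer, averaged 322 ± 73.8 in ICT1-8098 at 200 µM and 898 ± 87.7 in DMSO (SD, n = 3 each), -1.50 (SE 0.22, adjusted p = 1.56e-05).

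Of the aliphatic counterparts of the members, 5 of 6 were tested, with 0 called higher and 5 lower in ICT1-2 at 200 µM, 0 called higher and 5 lower in ICT1-2 at 400 µM, 0 called higher and 3 lower in ICT1-8098, 0 called higher and 3 lower in Col-0 at 200 µM and 0 called higher and 3 lower in Col-0 at 400 µM. The medians were -2.215, -3.52, -1.71, -3.45 and -3.24. Some of the ICT1-2 calls rest on low counts. At 200 µM CYP79F1 averaged 0 normalized counts, against 27.4 ± 31.2 in DMSO (SD, n = 3 and 2). MYB29 averaged 0 there, against 15.8 ± 1.07 in DMSO. CYP83A1, the aliphatic partner of CYP83B1, averaged 212 ± 53.3 normalized counts in Col-0 at 400 µM and 2629 ± 258 in DMSO (SD, n = 3 each), -3.65 (SE 0.42, adjusted p = 2.52e-07). CYP83B1 differed by -1.41 in that comparison, and whether these differ was not tested.

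For each member the 3 tested genes with the nearest profile were found by the root-mean-square difference of the 9 group means on the log2 scale, each gene centred on its own mean. CYP79B2 was nearest to RHS13 (AT4G02270) at 0.220, GSTF9 (AT2G30860) at 0.225 and APK2 (AT4G39940) at 0.231. CYP83B1 was nearest to GTR2 (AT5G62680) at 0.217, GSTF9 (AT2G30860) at 0.219 and ATPMEPCRA (AT1G11580) at 0.235. GSTF9, a glutathione transferase of the core pathway, was thus near both, and APK2 makes the sulfate donor. CYP79B3 was nearest to AT1G77520 at 0.234, CYTB5-C (AT2G46650) at 0.295 and MYB34 (AT5G60890) at 0.344, another member. MYB34 was nearest to AT1G70450 at 0.206, AT5G07322 at 0.239 and WNK9 (AT5G28080) at 0.245. For GGP1 the nearest were TSB1 (AT5G54810) at 0.220, ALA11 (AT1G13210) at 0.245 and AT1G33500 at 0.251. SUR1 had AT5G06630 at 0.121, PER30 (AT3G21770) at 0.137 and AT4G01450 at 0.138, and SOT16 had PSAT1 (AT4G35630) at 0.149, AT1G62085 at 0.163 and AT1G62200 at 0.168. MYB51 was nearest to AT1G04103 at 0.227, PUP8 (AT4G18195) at 0.258 and CML45 (AT5G39670) at 0.306, and MYB122 to AT4G01670 at 0.261, AT3G05937 at 0.289 and ARPN (AT2G02850) at 0.292. Genes with no symbol are given by identifier.

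The authors' deposited list of glucosinolate genes lowered by I3C in Col-0, which was made from these libraries, has 13 genes and holds 4 of the members, CYP79B2, CYP79B3, CYP83B1 and SUR1. Over the 90 values of the 9 members in the 10 pairwise comparisons, the authors' deposited table differs from the calls above in 4, all of them called there. These are MYB34 in wounded Col-0 (0.99 with an adjusted p of 0.0493 in the authors' deposited table), MYB51 in ICT1-2 at 400 µM against DMSO (0.86 with an adjusted p of 0.0455 in that table), MYB51 in ICT1-2 between 400 and 200 µM (-0.97 with an adjusted p of 0.0269) and CYP83B1 in ICT1-2 DMSO against Col-0 DMSO (-0.73 with an adjusted p of 0.0270). In the fit used here their adjusted p-values were 0.135, 0.0630, 0.0724 and 0.0512 in the same order.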

How the data were processed

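Root RNA of Arabidopsis thaliana was sequenced in 26 libraries of 9 groups analysed here, with a kit named in the labels' protocols that does not mark strand. The submitters' processing notes name the genome TAIR10 and the tools DESeq2 1.18.1, HTSeq 0.6.1 and TopHat2 2.1.0, with no order of use. The authors deposited normalized counts, which by their values are each library's reads divided by a size factor, together with log2 fold changes and adjusted p-values from their comparisons. The values are whole reads after rescaling (100.0% within 0.1 reads), from which depth was recovered. In 1 library 3 reads are 0.154 to 0.316 CPM, a floor that covers counting error only. Every column of normalized counts was matched to labelled samples.

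Members were taken by gene identifier. Genes that reached 10 normalized counts in 3 or more libraries were kept, and log2(normalized count + 1) was fitted with limma 3.58.1 (R 4.3.3) with a trended prior, all 26 libraries in 1 fit. Benjamini-Hochberg adjustment ran over all tested genes, with calls at 0.05. Fold changes on this scale understate changes of low genes. The design planned for raw counts was replaced because the values are normalized. Alternatives were other filters, pseudocounts (0.5 and 5) and scalings, the compared groups alone, a replicate block, voom on recovered reads and each library left out. Tables and figures used matplotlib 3.10.9, pandas 2.3.3 and numpy 2.4.6 in Python 3.11.15. Upstream windows are from RefSeq TAIR10.1, where the members' coordinates are the same as in TAIR10.

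The members and gene lists were chosen with earlier results of these data known. Named genes are the members, up to 2 called genes of each list per comparison with the largest change, and the 3 nearest profiles of each member. A few of these are given here.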

Additional observations from a re-analysis of the deposited data

Results flagged for a closer look

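The response to I3C at 200 µM differed between ICT1-2 and Col-0 for CYP79B3, by 1.70 on the log2 scale in a limma interaction test (adjusted p = 0.0387). CYP79B3 differed from DMSO by -0.17 in ICT1-2 and by -1.87 in Col-0. The call was lost without 9 of 11 single libraries, with the compared groups alone and with voom.

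At 400 µM the response of GGP1 differed between these lines by 1.20 on the log2 scale in the same test (adjusted p = 0.0380). GGP1 differed from DMSO by 1.78 in ICT1-2 and by 0.57 in Col-0. This call was lost without 8 of 11 single libraries, without the low-count filter, with voom and with a replicate block (adjusted p = 0.180). The S30 level does not mark the libraries labelled ICT1-2 as overexpressing, so both differences are between libraries by label.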

How the results depend on the processing

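Of 117 member differences tested, 42 were called, and 24 of these kept their call under every alternative run, 25 without each library in turn. The libraries and settings that ended the others are given with the results above, and the replicate block below; the cause of each lost call was not tested. Fewer samples remain where a library is left out, and with 1 ICT1-2 DMSO library left it is assumed to vary like the other groups. The planned edgeR test was not run, since the deposited values are normalized; voom on recovered reads was added after seeing the data. Further members were called with the compared groups alone (MYB34 in ICT1-2 at 200 µM, MYB51 in ICT1-2 at 400 µM, MYB51 in ICT1-2 between the doses, MYB122 in ICT1-8098 at 200 µM, CYP83B1 in ICT1-2 against Col-0 in DMSO, MYB34 in ICT1-8098 against Col-0 in DMSO), with total-read scaling (SOT16 in Col-0 at 400 µM, MYB34 in ICT1-2 at 200 µM, MYB34 and MYB51 in ICT1-2 between the doses, CYP83B1 in the ICT1-2 minus Col-0 response at 200 µM) and with a pseudocount of 5 (CYP83B1 in ICT1-2 against Col-0 in DMSO). Leaving out a library added SUR1 in the ICT1-2 minus Col-0 response at 200 µM (without Col-0 200 µM replicate 1), MYB122 in ICT1-2 against Col-0 in DMSO (without Col-0 DMSO replicate 3), CYP83B1 in ICT1-2 against Col-0 in DMSO (without Col-0 DMSO replicate 3), MYB122 in the ICT1-2 minus Col-0 response at 200 µM (without Col-0 DMSO replicate 3), MYB122 in the ICT1-2 minus Col-0 response at 200 µM (without ICT1-2 200 µM replicate 5) and MYB34 in ICT1-2 between the doses (without ICT1-2 400 µM replicate 4). The number of members called moved as follows. Without the low-count filter it was 1 for ICT1-8098 against Col-0 in DMSO and 0 for the ICT1-2 minus Col-0 response at 400 µM. With the compared groups alone it was 1 for wounded Col-0 and 0 for the ICT1-2 minus Col-0 response at 200 µM. With a replicate block it was 1 for wounded Col-0, 2 for the ICT1-2 minus Col-0 response at 200 µM and 0 for the ICT1-2 minus Col-0 response at 400 µM. With TMM scaling it was 1 for ICT1-8098 against Col-0 in DMSO. With total-read scaling it was 2 for the ICT1-2 minus Col-0 response at 200 µM. With a pseudocount of 5 it was 2 for ICT1-2 against Col-0 in DMSO. With voom it was 0 for the ICT1-2 minus Col-0 response at 200 µM and 0 for the ICT1-2 minus Col-0 response at 400 µM. Leaving out single libraries gave ranges of 5 to 6 for Col-0 at 200 µM, 0 to 2 for the ICT1-2 minus Col-0 response at 200 µM, 5 to 6 for Col-0 at 400 µM, 0 to 1 for the ICT1-2 minus Col-0 response at 400 µM, 0 to 3 for wounded Col-0, 0 to 3 for ICT1-2 against Col-0 in DMSO, 1 to 2 for ICT1-8098 against Col-0 in DMSO, 3 to 5 for ICT1-2 at 200 µM, 3 to 6 for ICT1-2 between the doses, 5 to 6 for ICT1-2 at 400 µM and 5 to 6 for ICT1-8098 at 200 µM. No called difference reversed. With a replicate block these values changed sign: SOT16 -0.036 for Col-0 at 200 µM, MYB34 -0.069 for ICT1-2 against Col-0 in DMSO, MYB34 0.93 and SUR1 0.41 for the ICT1-2 minus Col-0 response at 400 µM, SOT16 0.12 for the ICT1-8098 minus Col-0 response. With TMM scaling these values changed sign: SOT16 -0.0050 for ICT1-8098 at 200 µM, CYP79B2 0.020 and SUR1 0.0028 for ICT1-8098 against Col-0 in DMSO. With total-read scaling these values changed sign: SOT16 -0.29 for Col-0 at 200 µM, CYP79B2 -0.027 for ICT1-2 at 200 µM, SOT16 -0.35 for ICT1-2 at 400 µM, GGP1 -0.022 and SOT16 -0.18 for ICT1-8098 at 200 µM, CYP79B2 0.073 and SUR1 0.056 for ICT1-8098 against Col-0 in DMSO, SOT16 0.12 for the ICT1-8098 minus Col-0 response. With voom these values changed sign: MYB122 -0.0051 for Col-0 between the doses, SOT16 -0.0076 for ICT1-8098 at 200 µM, CYP79B2 0.020 and SUR1 0.0031 for ICT1-8098 against Col-0 in DMSO. Leaving out single libraries changed the sign of other uncalled values, whose ranges were MYB34 -0.53 to 0.17, SUR1 -0.16 to 0.15, CYP83B1 -0.30 to 0.18, MYB51 -0.30 to 0.18, GGP1 -0.24 to 0.10 and MYB122 -0.19 to 0.70 for Col-0 between the doses, SOT16 -0.15 to 0.20 for Col-0 at 200 µM, CYP83B1 -0.39 to 0.052, SOT16 -0.20 to 0.15, MYB34 -0.063 to 0.63 and CYP79B2 -0.11 to 0.38 for the ICT1-8098 minus Col-0 response, MYB122 -0.69 to 0.21 for Col-0 at 400 µM, MYB34 -0.37 to 0.24, CYP79B2 -0.00083 to 0.58 and SUR1 -0.15 to 0.10 for the ICT1-2 minus Col-0 response at 400 µM, CYP79B2 -0.49 to 0.0030 for ICT1-2 against Col-0 in DMSO, CYP79B2 -0.32 to 0.17 and SUR1 -0.080 to 0.076 for ICT1-8098 against Col-0 in DMSO, MYB122 -0.48 to 0.089 for wounded Col-0, CYP79B3 -0.35 to 0.020 and CYP83B1 -0.18 to 0.015 for ICT1-2 at 200 µM, SOT16 -0.016 to 0.17 for ICT1-2 at 400 µM, SOT16 -0.13 to 0.15 for ICT1-8098 at 200 µM. Same-numbered libraries of different groups had no higher median correlation of deviations than the others, which does not show that they are unpaired. The 62 same-numbered pairs had a median of 0.000846, with 13 over 0.1, and the 238 other pairs 0.0051, with 31. The replicate block ended the wounding calls of CYP79B2 (adjusted p = 0.0583) and CYP79B3 (adjusted p = 0.0561) and the GGP1 difference in response (adjusted p = 0.180). It added a SUR1 difference in response at 200 µM (adjusted p = 0.0209). Over all genes, counts moved by over 1.5 times with the compared groups alone to 3638 against 6120 for Col-0 at 200 µM, 0 against 26 for Col-0 between the doses, 277 against 524 for wounded Col-0, 32 against 144 for the ICT1-2 minus Col-0 response at 200 µM and 6 against 56 for the ICT1-8098 minus Col-0 response; with a replicate block to 890 against 1700 for ICT1-2 between the doses and 305 against 144 for the ICT1-2 minus Col-0 response at 200 µM; with total-read scaling to 10677 against 6644 for ICT1-2 at 400 µM; with voom to 48 against 144 for the ICT1-2 minus Col-0 response at 200 µM and 14 against 56 for the ICT1-8098 minus Col-0 response.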
